A study of Homo sapiens with 12 samples.

Results

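Lysosomal cathepsins and the other acid hydrolases of the lysosome were followed as a group of 45 genes in 2 human melanoma lines depleted of MITF, the transcription factor that governs the melanocyte lineage. The genes were chosen by symbol, from a list of cathepsins, glycosidases, sulfatases, lipid-degrading enzymes and their activators, and all 45 listed symbols were present among the 12616 genes of the deposited table. MeWo and SkMel28 are cutaneous melanoma lines, and both were engineered with a short hairpin against MITF that doxycycline (Dox) switches on. Cells were kept for 8 days without Dox (control) or with 1 µg/ml Dox, with 3 libraries for each line and dose, which gave the groups MeWo control, MeWo Dox, SkMel28 control and SkMel28 Dox. RNA was read at the 3′ ends of polyadenylated transcripts. Control cells carry the hairpin too, and no group received Dox without it, so that a change with Dox is that of the hairpin and the drug together. The labels give EMEM for MeWo and RPMI for SkMel28, whereas the methods of the study name RPMI for its human lines with an exception that is neither of these. If the labels hold, line and medium cannot be told apart. The labels number the 3 libraries of a group but do not call them separate cultures, and the p-values then measure only the spread between these libraries, which may be technical.

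Acid hydrolases are made in the endoplasmic reticulum, tagged with mannose 6-phosphate in the Golgi and delivered to the lysosome, where proton pumping provides the low pH they need. Cathepsins cut proteins, glycosidases and sulfatases take apart the sugar chains of glycoproteins, glycosaminoglycans and glycolipids, and lipid hydrolases work with small activator proteins that lift their substrates out of membranes. Loss of a single enzyme lets its substrate build up, as in Tay-Sachs, Pompe and Batten diseases. MITF, TFEB and TFE3 are related basic helix-loop-helix leucine zipper factors that bind E-boxes. In another melanoma line the study found a similar motif for each of them, TCACGTGA, a palindromic E-box with T and A on its flanks. TFEB and TFE3 are known for switching on lysosomal genes through this palindrome, which is thus a motif of MITF as well. In pigment cells the melanosome is a lysosome-related organelle and shares part of this machinery.

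Promoter sequences are shown for the members that hold this palindrome, of which GALNS and GAA rose in MeWo and CTSA and SCPEP1 were not called with Dox. RefSeq promoter windows (GRCh38.p14), reaching from 250 bases before to 50 bases after the annotated start, were at hand for 31 of the 45 members. No window was at hand for CTSB, CTSK, CTSO, CTSS, LGMN, GGH, NAGLU, SGSH, HGSNAT, HEXA, ARSA, ASAH1, PSAP and MANBA. CTSK, ASAH1 and HEXA, called lower in MeWo, were therefore not searched, whereas all members called higher there were. GM2A and TPP1, the other falls called in MeWo, had windows without TCACGTGA. TCACGTGA was found in 4 of these 31 windows (12.9%) and in 192 of all 9527 promoter windows of the same length (2.02%). Its core CACGTG was found in 7 of 31 (22.6%) against 10.5% of all windows, the same core with T before it on either strand (TCACGTG) in 7 of 31 (22.6%) against 6.18%, and CATGTG in 5 of 31 (16.1%) against 6.71%. Both strands were searched, and every TCACGTGA also counts as a CACGTG. A match describes the letters of the window and was not read as a binding site. The windows below give 30 bases in the direction of the gene with the motif in capitals, for the 4 genes with the full palindrome. CTSF, CTSD and NEU1 hold CACGTG with the T on 1 side and not the full palindrome. Distances run from the first C of the core CACGTG, 1 base inside the palindrome, to the RefSeq start. That start can differ from the GENCODE gene ends printed further on, so that some windows lie inside the GENCODE gene.
GAA, chr17:80101493-80101522, plus strand, motif starting 76 bases before the start: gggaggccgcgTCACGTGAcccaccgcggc
GAA, chr17:80101538-80101567, plus strand, motif starting 31 bases before the start: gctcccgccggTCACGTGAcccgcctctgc
GALNS, chr16:88857104-88857133, minus strand, motif starting 174 bases before the start: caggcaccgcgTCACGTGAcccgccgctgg
CTSA, chr20:45891298-45891327, plus strand, motif starting 25 bases before the start: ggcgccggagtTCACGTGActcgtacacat
SCPEP1, chr17:56978092-56978121, plus strand, motif starting 27 bases before the start: gtccgcctccgTCACGTGAtggggcgccgg

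Values below are normalised reads per 1000000 and come from libraries of 2568187 to 3714608 reads, in which 1 read is worth 0.278 to 0.389. Group values are mean ± SD (n = 3). Changes are differences of log2(value + 1), which understate the change of genes with few reads, and a gene was called at a Benjamini-Hochberg adjusted p under 0.05 in limma over all 12616 genes. All 8 melanocytic markers examined were listed, and they did not move as 1 set. In MeWo 6 were called lower and 2 higher (DCT and S100B), and in SkMel28 3 lower and 1 higher (S100B), while their summed level was 11490 to 13277 in control and 6706 to 8414 in Dox libraries. Of 8 macrophage and leukocyte markers only CD68 was listed, itself a lysosomal membrane protein, and of 6 fibroblast markers only LUM and DCN were. Of 5 keratinocyte markers KRT10 and CDH1 were listed, and CDH1, also made by melanocytes, was called lower in MeWo (-1.02) and in SkMel28 (-1.25). MeWo Dox library 1 stood apart. In 20 of the 45 members its value lay away from the other 2 libraries of its group by more than 2 times the gap between them, which held for 30.6% of all genes, and counts without it are given beside the main ones. The same held in 16 members for SkMel28 Dox library 3 and in 15 for SkMel28 control library 2 (26.2% of all genes each).

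MITF itself was lower with Dox in both lines. MeWo control libraries held 657, 663 and 708 and Dox libraries 451, 354 and 371, a change of -0.79 ± 0.11 (SE), adjusted p = 6.49e-05. SkMel28 libraries had 861, 739 and 792 against 575, 578 and 552, a change of -0.49 ± 0.11 (SE), adjusted p = 0.00705. The Dox libraries lay below all controls in each line, and the mean level fell by 42.0% in MeWo and by 28.7% in SkMel28. The SkMel28 call was lost with no mean-variance trend (-0.49, adjusted p = 0.05002 in limma). TFE3 rose in MeWo from 23.3 ± 2.55 to 33.6 ± 3.11 (0.51 ± 0.16 (SE), adjusted p = 0.0324). That call was lost without MeWo control library 1 (0.54), 2 (0.57) or 3 (0.43) or without Dox library 2 (0.51). It was also lost with MeWo fitted alone and with a replicate block (0.51 each). In SkMel28 TFE3 had a change of 0.14 ± 0.16 (SE), adjusted p = 0.661. TFEB was read at 4.88 ± 2.20 and 5.26 ± 2.10 in MeWo control and Dox and had 3 reads or fewer in every SkMel28 Dox library, with no call in either line.

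In MeWo, 14 of the 45 hydrolase genes were called with Dox (31.1%), against 16.7% of all genes. Of these, 9 were higher (against 8.58% of all genes) and 5 lower (11.1% against 8.12%), and 4 changed by at least 2-fold (8.89% against 6.21%). The cathepsin C gene CTSC, the sulfatase gene GALNS, the fucosidase gene FUCA1 and the glycogen-degrading GAA rose most, while the cathepsin K gene CTSK fell by 92.5% and GM2A, TPP1, ASAH1 and HEXA fell less. The median change of the 45 genes was 0.17, and 0 over all genes. Without Dox library 1, 23 members were called, 17 higher and 6 lower, against 31.0% of all genes. On the recovered reads edgeR called 15 members (16.2% of all genes) and DESeq2 16 (14.8%), and with MeWo fitted alone limma called 8 (6.44%). Scaling to the spike-in RNAs moved the median of all genes by 0.22, and then 19 members were called, 15 higher and 4 lower, against 19.7%. The 3 Dox and 3 control libraries did not overlap in 16 members, 8 higher (14.1% of all genes) and 8 lower (14.7%), or 35.6% against 28.8% of all genes.

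In SkMel28, 7 of the 45 genes were called (15.6%), against 10.9% of all genes. Here 5 were lower (11.1% against 5.04%) and 2 higher (4.44% against 5.88%). GM2A was called at 2-fold or more (2.22% against 4.28%). GM2A and ASAH1 fell most, followed by HEXA, GLB1 and FUCA1, and CTSF and AGA rose. The median change of the 45 genes was -0.053, and 0.0029 over all genes. With spike-in scaling, 5 members were called and all 5 were lower (7.35% of all genes). On the recovered reads edgeR called 8 (11.3%) and DESeq2 7 (10.3%), and limma with no mean-variance trend called 3 (8.74%). Dropping a library of either line changes this count, to 11 without MeWo Dox library 1 (16.2% of all genes), 4 without SkMel28 control library 2 (8.05%), 4 without Dox library 1 (6.48%), 3 without Dox library 2 (6.21%) and 6 without Dox library 3 (8.27%). CD68, a lysosomal protein and the one listed macrophage marker of 8, went from 78.2 to 101 in SkMel28 control to 18.7 to 23.0 in SkMel28 Dox, and its part in the falls was not tested. In bulk libraries fewer expressing cells and less RNA per cell cannot be told apart. The groups did not overlap in 16 members, 7 higher and 9 lower (16.1% of all genes each), or 35.6% against 32.3%. Members called in both lines numbered 5 (11.1%, against 4.08% of all genes). ASAH1, GM2A and HEXA were lower and AGA higher in each, whereas FUCA1 was higher in MeWo and lower in SkMel28. In all, 16 members were called in at least 1 line (35.6%, against 23.5% of all genes) and 29 in none. Of these 29, the ones given below with library values were chosen after their values were seen.

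**Figure D1:**
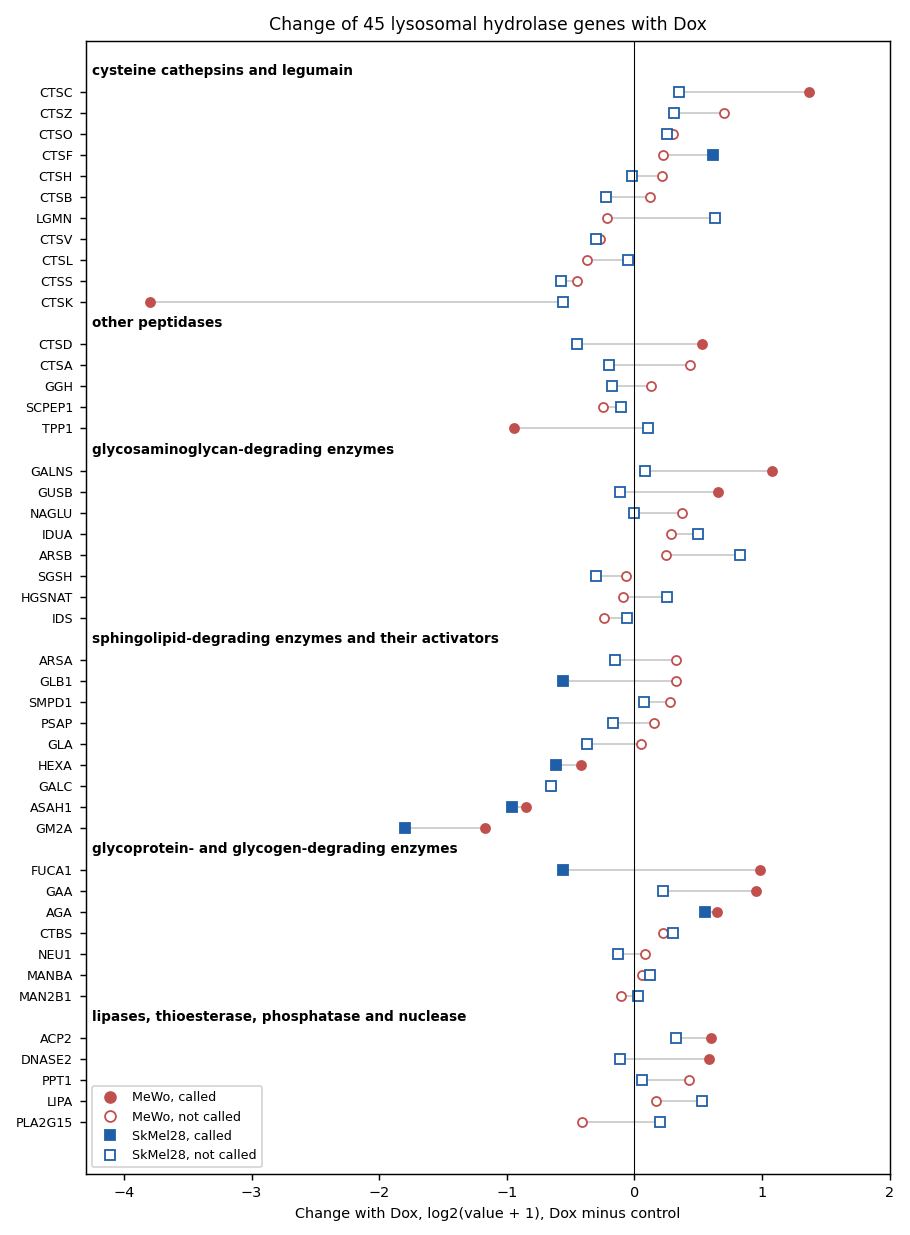
Change with Dox of the 45 hydrolase genes in MeWo (circles) and SkMel28 (squares), as the difference of mean log2(value + 1), Dox minus control, grouped by enzyme class and ordered by the change in MeWo; filled symbols were called and grey lines join the lines of 1 gene. CTSK stands at -3.79 in MeWo and -0.56 in SkMel28, and GM2A, ASAH1 and HEXA lie below 0 in both lines.

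Among the 11 cysteine cathepsins and legumain, 2 were called in MeWo and 1 in SkMel28. CTSK (chr1:150794880-150809577, minus strand) encodes a collagen-degrading cathepsin best known from osteoclasts. Its values were 269, 274 and 290.2 in MeWo control and 33.5, 14.4 and 14.2 in MeWo Dox, a change of -3.79 ± 0.23 (SE), adjusted p = 6.11e-09. All Dox libraries stood far below the controls, and the mean fell by 92.5%. In SkMel28 it was read at 141, 105 and 117 without and 84.3, 86.2 and 73.7 with Dox (-0.56 ± 0.23 (SE), adjusted p = 0.135), so that the groups did not overlap but the change was not called. It was called in SkMel28 when that line was fitted alone (-0.56) and without MeWo Dox library 1 (-0.56). Alongside, the fibroblast marker LUM fell in MeWo from 40.9, 46.6 and 45.7 to 16.3, 8.34 and 13.2 (-1.78 ± 0.23 (SE), adjusted p = 3.06e-05), whereas DCN had 1.23 ± 0.686 and 1.91 ± 0.834 and was not called. The sum of both was 41.5 to 47.8 in control and 9.85 to 19.2 in Dox libraries, COL1A1, COL1A2, COL3A1 and PDGFRA were not listed, and the part of these markers in the CTSK change was not tested.

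CTSC (chr11:88265069-88359684, minus strand) encodes dipeptidyl peptidase I, which activates other proteases by trimming their ends. It went from 23.0, 17.9 and 23.3 in MeWo control to 53.6, 56.9 and 58.6 in MeWo Dox (1.36 ± 0.14 (SE), adjusted p = 3.07e-06), with no overlap. The mean rose by 163%. SkMel28 held 91.6, 102 and 86.6 without and 135, 117 and 106 with Dox, again without overlap, and its change of 0.35 ± 0.14 (SE), adjusted p = 0.133 was not called. CTSF (chr11:66563464-66568879, minus strand), a cathepsin with a long propeptide, rose in SkMel28 from 69.9, 60.3 and 70.9 to 92.9, 106 and 111 (0.62 ± 0.15 (SE), adjusted p = 0.0126). That call was lost with spike-in scaling (0.52) and no mean-variance trend (0.62), without SkMel28 control library 2 (0.55), and without Dox library 2 (0.60) or 3 (0.57). In MeWo CTSF had 211 to 249 in control and 205 to 329 in Dox libraries, which overlap, and was called without Dox library 1 (0.41).

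The other 8 of this class, CTSB, CTSH, CTSL, CTSO, CTSS, CTSV, CTSZ and LGMN, were called in neither line, with changes from -0.45 (CTSS) to 0.70 (CTSZ) in MeWo and from -0.58 (CTSS) to 0.63 (LGMN) in SkMel28. CTSZ came closest in MeWo, with 189, 249 and 259 in control and 222, 497 and 479.6 in Dox libraries (adjusted p = 0.057). It was called without Dox library 1 (1.08), with spike-in scaling (0.98) and in edgeR (0.78) and DESeq2 (0.80). The 3′ ends of CTSZ, CTSA, SGSH and GLA lie inside genes of the other strand (NELFCD, PLTP, CARD14 and RPL36A), from which their reads can be told apart only if strand was counted, and this is not stated. LGMN, the asparaginyl endopeptidase that matures several cathepsins, had 20.6, 32.0 and 24.9 in SkMel28 control and 43.6, 47.8 and 30.5 in SkMel28 Dox (adjusted p = 0.0933). In that line LGMN was called without MeWo Dox library 1 or 2 (0.63 each) or SkMel28 Dox library 3 (0.82). CTSS, the cathepsin of antigen-presenting cells, had at most 3 reads in every MeWo library, and its 12 libraries held 0 to 14 reads.

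Of 5 other peptidases, CTSD rose and TPP1 fell in MeWo, and these were the called changes of the class. CTSD (chr11:1752752-1764573, minus strand), the main aspartic protease of the lysosome, ranged over 1007 to 1163 in MeWo control and 1142 to 1864 in MeWo Dox, a change of 0.53 ± 0.15 (SE), adjusted p = 0.022. Dox library 1, at 1142, lay within the control range and the other 2 Dox libraries above it. The call was lost without MeWo control library 2 (0.49) or 3 (0.49) and without Dox library 2 (0.38) or 3 (0.47). It was also lost with no mean-variance trend and with MeWo fitted alone (0.53 each). In SkMel28 CTSD had 1938, 2181 and 2198 in control and 1389, 1560.5 and 1676 in Dox libraries. These did not overlap, and the change of -0.45 ± 0.15 (SE), adjusted p = 0.0615 was not called in limma, though it was in edgeR (-0.45), with SkMel28 fitted alone (-0.45) and without MeWo Dox library 1 or 2 (-0.45 each).

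TPP1 (chr11:6612768-6619448, minus strand) encodes tripeptidyl peptidase 1, the enzyme missing in a form of Batten disease. It fell in MeWo, from 262, 274 and 245 to 244, 103 and 97.2 (-0.94 ± 0.25 (SE), adjusted p = 0.0147). Dox library 1 lay just below the lowest control and the other 2 much lower. Without control library 2 (-0.91), Dox library 2 (-0.75) or Dox library 3 (-0.71) the call was lost. It was also lost with no mean-variance trend and with MeWo fitted alone (-0.94 each). In SkMel28 TPP1 had 208 to 312 without and 273 to 324 with Dox, which overlap. CTSA, the protective protein that holds β-galactosidase and neuraminidase together, and SCPEP1, a serine carboxypeptidase, both hold the palindrome shown above. CTSA had 168, 171 and 171 in MeWo control and 154, 295 and 269.9 in MeWo Dox (adjusted p = 0.104). It was called without Dox library 1 (0.73) and with spike-in scaling (0.71). SCPEP1 had 6.80 to 9.50 and 4.93 to 8.13 and was called with Dox in no alternative. GGH, which trims folate polyglutamates, had changes of 0.13 in MeWo and -0.17 in SkMel28, neither called.

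In the 9 sphingolipid-degrading enzymes and activators the called changes with Dox were falls in both lines. All 3 called members fell in MeWo, as did all 4 in SkMel28, with median changes over the 9 genes of 0.051 and -0.56. GM2A (chr5:151212150-151270440, plus strand) encodes the GM2 activator, which lifts the ganglioside GM2 out of the membrane. Its values went from 119, 118 and 106 to 43.1, 59.9 and 48.8 in MeWo (-1.17 ± 0.14 (SE), adjusted p = 1.53e-05) and from 256, 206 and 252 to 70.1, 59.5 and 73.1 in SkMel28 (-1.80 ± 0.14 (SE), adjusted p = 2.73e-07). Every Dox library was below every control in both lines, and the mean fell by 55.8% in MeWo and fell by 71.6% in SkMel28.

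HEXA (chr15:72340924-72376420, minus strand), the α-subunit of the β-hexosaminidase that then trims GM2, fell as well. SkMel28 held 236, 226 and 227 in control and 143, 156 and 151 in Dox libraries (-0.61 ± 0.12 (SE), adjusted p = 0.00316), far apart. MeWo had 152 to 159.7 in control and 94.2 to 130.4 in Dox libraries (-0.42 ± 0.12 (SE), adjusted p = 0.0261), also without overlap. But this call was lost with spike-in scaling (-0.15) and without control library 1 (-0.42), 2 (-0.40) or 3 (-0.44). It was also lost with no mean-variance trend and with MeWo fitted alone (-0.42 each). ASAH1, acid ceramidase, went from 274, 273 and 293 to 182, 135 and 151 in MeWo (-0.85 ± 0.11 (SE), adjusted p = 5.26e-05) and from 302, 288 and 312 to 159.7, 152 and 150.2 in SkMel28 (-0.96 ± 0.11 (SE), adjusted p = 2.66e-05). The groups were clear of each other in both lines, and the mean fell by 44.3% in MeWo and by 48.8% in SkMel28.

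GLB1 (chr3:32996609-33097202, minus strand), the β-galactosidase that acts on GM1, fell in SkMel28 from 170.1, 199 and 205 to 117, 139.7 and 131 (-0.56 ± 0.16 (SE), adjusted p = 0.0324). All Dox libraries lay below the controls, but the call was lost without SkMel28 control library 2 (-0.53) or 3 (-0.51) without Dox library 1 (-0.49), 2 (-0.62) or 3 (-0.57), and with no mean-variance trend (-0.56). In MeWo GLB1 had 93.0, 78.1 and 83.6 in control and 78.2, 119 and 130.1 in Dox libraries, which overlap, and was called without Dox library 1 (0.55) and with spike-in scaling (0.60). The gene shares its strand with TMPPE, whose 3′ end lies inside it and which had 0 to 8 reads per library. Apart from these, GLA, GALC, ARSA, SMPD1 and PSAP were called in neither line, with changes from -0.65 (GALC) to 0.33 (ARSA) in MeWo and from -0.65 (GALC) to 0.07 (SMPD1) in SkMel28. Without MeWo Dox library 1, ARSA (0.44) and SMPD1 (0.57) were called higher and GALC (-0.98) lower in MeWo, and ARSA was also called with spike-in scaling (0.59). PSAP, the precursor of the saposin activators, was read at 6576 ± 467 and 7307 ± 382 in MeWo and at 3221 ± 276 and 2859 ± 227 in SkMel28.

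Of 7 glycoprotein- and glycogen-degrading enzymes, 3 rose in MeWo, and in SkMel28 1 rose and 1 fell. FUCA1 (chr1:23845077-23868290, minus strand), the α-fucosidase, took opposite directions. MeWo libraries had 29.4, 24.9 and 26.6 without and 43.4, 60.3 and 61.0 with Dox (0.99 ± 0.14 (SE), adjusted p = 0.000108), and SkMel28 libraries 203, 182 and 196 without and 125, 123 and 146 with Dox (-0.56 ± 0.14 (SE), adjusted p = 0.0166). Neither pair of groups overlapped. The mean rose by 104% in MeWo and fell by 32.2% in SkMel28. In SkMel28 the call was lost with no mean-variance trend (-0.56), without control library 1 (-0.52) or 3 (-0.55) and without Dox library 1 (-0.53) or 2 (-0.52).

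GAA (chr17:80101533-80119881, plus strand), the acid α-glucosidase that frees glucose from glycogen and is lost in Pompe disease, rose in MeWo. Its libraries went from 93.9, 101 and 81.0 to 148, 191 and 200.2 (0.95 ± 0.14 (SE), adjusted p = 0.000133), a mean rise of 95.2% with no overlap. SkMel28 had 48.2, 51.4 and 49.0 and 54.0, 65.8 and 55.0, which also did not overlap, with a change of 0.23 ± 0.14 (SE), adjusted p = 0.361 that was not called. AGA (chr4:177430774-177442437, minus strand), which splits the bond between sugar and asparagine, rose in both lines. It was read at 28.2, 28.4 and 27.5 and 57.1, 41.3 and 36.9 in MeWo (0.64 ± 0.17 (SE), adjusted p = 0.0134) and at 90.2, 65.7 and 95.8 and 124, 126 and 116 in SkMel28 (0.55 ± 0.17 (SE), adjusted p = 0.041). Every Dox library was above every control in each line. The SkMel28 call was lost in 13 of 22 alternatives, among them spike-in scaling (0.45), a pseudocount of 0.1 (0.56), no mean-variance trend and SkMel28 fitted alone (0.55 each), and without MeWo control library 1, 2 or 3 (0.55 each), without SkMel28 control library 1 (0.61) or 2 (0.39), and without Dox library 1 (0.54), 2 (0.53) or 3 (0.59). MAN2B1, MANBA, NEU1 and CTBS were called in neither line, with changes from -0.11 (MAN2B1) to 0.22 (CTBS) in MeWo and from -0.13 (NEU1) to 0.30 (CTBS) in SkMel28.

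**Figure D2:**
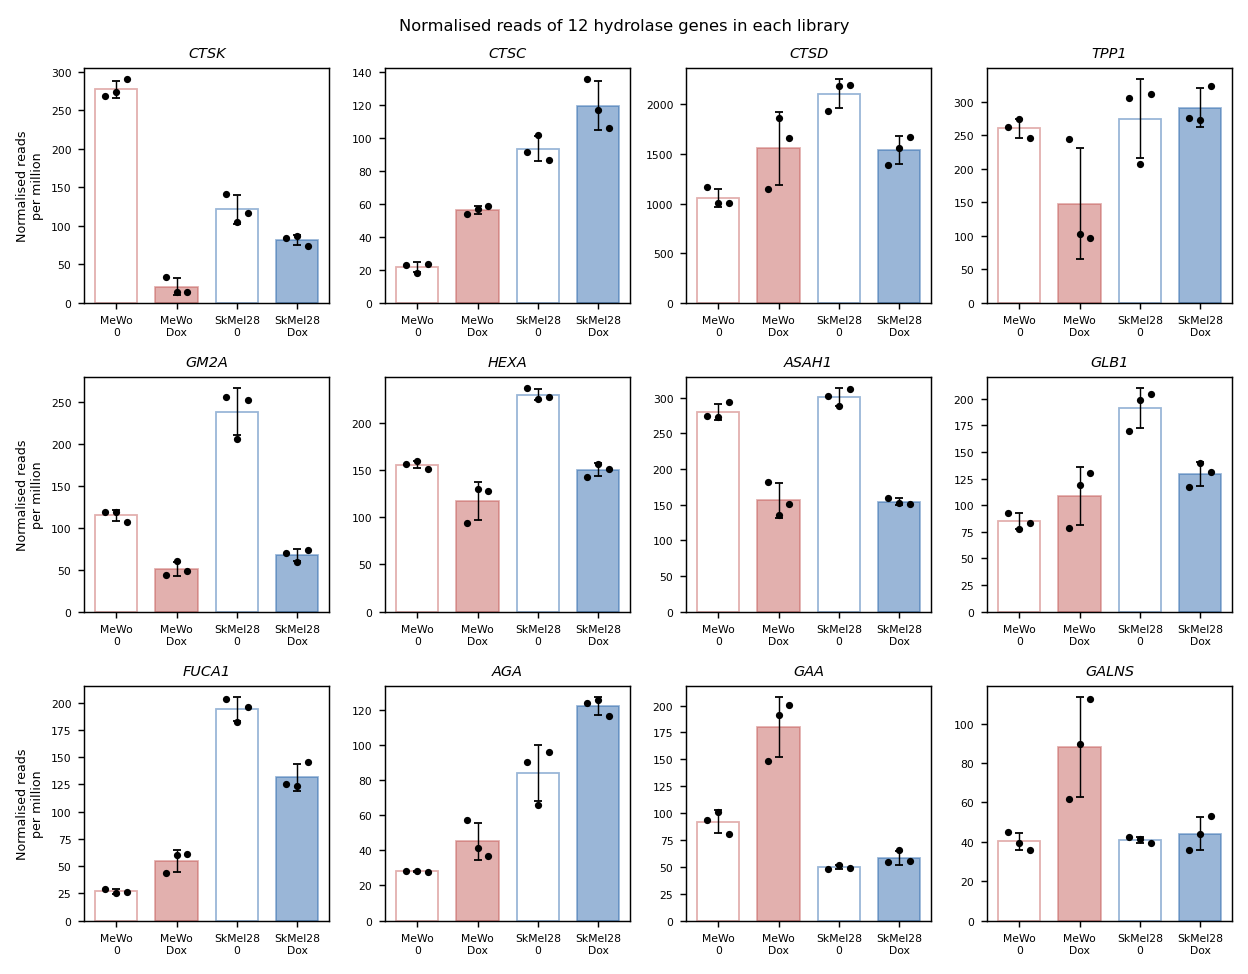
Normalised reads per 1000000 of 12 hydrolase genes in each of the 12 libraries (dots), with bars for the group mean and error bars of 1 SD (n = 3); open bars are controls (0 µg/ml Dox), filled bars 1 µg/ml Dox, red MeWo and blue SkMel28, and each panel has its own axis from 0. CTSK falls to 14.2 to 33.5 in MeWo Dox, GM2A is lower with Dox in both lines, and for CTSD and TPP1 the MeWo Dox library 1 lies apart from the other 2.

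Among the 8 glycosaminoglycan-degrading enzymes, GALNS and GUSB rose in MeWo and were the called members. GALNS (chr16:88813734-88856970, minus strand), a sulfatase of keratan and chondroitin sulfate and lost in Morquio disease, went from 44.9, 39.6 and 36.0 to 61.9, 89.8 and 112 (1.08 ± 0.19 (SE), adjusted p = 0.000722). All Dox libraries exceeded the controls, though over a wide span. In SkMel28 the values were 42.6, 41.3 and 39.5 and 35.9, 43.8 and 52.9, which overlap (0.09 ± 0.19 (SE), adjusted p = 0.845). The 3′ ends of GALNS and of TRAPPC2L on the other strand lie outside their overlap, and TRAPPC2L had an adjusted p of 0.553 in MeWo. GUSB (chr7:65960684-65982215, minus strand), the β-glucuronidase, went from 57.0, 60.2 and 59.6 to 109.8, 77.7 and 94.5 in MeWo (0.65 ± 0.14 (SE), adjusted p = 0.00475) without overlap and had 30.8 to 36.8 and 29.7 to 33.5 in SkMel28. Pseudogene copies of GUSB exist, and how reads with several matches were counted is not stated. IDS, IDUA, NAGLU, SGSH, HGSNAT and ARSB were called in neither line, with changes from -0.24 (IDS) to 0.37 (NAGLU) in MeWo and from -0.30 (SGSH) to 0.83 (ARSB) in SkMel28. NAGLU was called in MeWo without Dox library 1 (0.51) and with spike-in scaling (0.64).

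The last class holds a thioesterase, 2 lipases, a phosphatase and a nuclease. ACP2 (chr11:47239302-47248906, minus strand), lysosomal acid phosphatase, rose in MeWo by 0.60 (adjusted p = 0.0237), with 36.9, 35.7 and 24.3 in control and 43.7, 55.3 and 47.8 in Dox libraries. DNASE2 (chr19:12875209-12881595, minus strand), which digests the DNA of engulfed cells, rose in MeWo by 0.59 (adjusted p = 0.00966), with 104, 90.5 and 90.7 in control and 114, 161 and 159.5 in Dox libraries. Neither overlapped its controls. The ACP2 call was lost without MeWo control library 3 (0.41) and without Dox library 2 (0.51) or 3 (0.62). It was also lost with no mean-variance trend and with MeWo fitted alone (0.60 each). The DNASE2 call was lost with MeWo fitted alone (0.59) and without Dox library 3 (0.51). PPT1, the palmitoyl-protein thioesterase of another Batten disease, had 108, 117 and 138 and 128, 166 and 202 in MeWo (adjusted p = 0.0576) and was called in DESeq2 (0.46), with spike-in scaling (0.70) and without Dox library 1 (0.60). LIPA, the acid lipase of cholesteryl esters, had 28.7, 32.7 and 24.5 and 50.5, 42.4 and 33.2 in SkMel28 (adjusted p = 0.0663), without overlap, and was called without MeWo Dox library 1 (0.53) or SkMel28 Dox library 3 (0.68). PLA2G15 had changes of -0.41 and 0.20, neither called.

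Together the 45 genes took 1.16 to 1.23% of the gene reads of MeWo control libraries and 1.23 to 1.33% with Dox, ranges that overlap. In SkMel28 they took 1.24 to 1.27% without Dox and a lower 1.09 to 1.16% with it, ranges that do not overlap. Genes with many reads weigh most in this share. In SkMel28 the mean of PSAP went from 3221 to 2859, that of CTSD from 2106 to 1542 and that of CTSB from 1409 to 1209, none called. Of the 45 changes in that line 20 were above 0 and 25 below, so the share does not describe the genes 1 by 1.

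Whether the hydrolases answered differently in the lines was tested by the change in MeWo minus that in SkMel28. The test called 9 of the 45 genes, against 7.09% of all genes, and 3 of them by at least 2-fold (6.67% against 4.91%). CTSC, CTSD, GUSB, GALNS, GLB1, FUCA1, GAA and DNASE2 changed more positively in MeWo, making 8 of 9 (17.8% of members against 3.71% of all genes), and CTSK more negatively (2.22% against 3.38%). Differences were largest for CTSK (-3.23 ± 0.32 (SE), adjusted p = 1.66e-05), FUCA1 (1.55 ± 0.20 (SE), adjusted p = 0.000216) and CTSC (1.01 ± 0.20 (SE), adjusted p = 0.00562), and these 3 were called under every alternative. CTSD (0.98 ± 0.21 (SE), adjusted p = 0.0102) lost its call in the fit with no mean-variance trend (0.98) and kept it without any 1 library. The calls of GUSB (0.76), GALNS (0.99), GLB1 (0.89), GAA (0.73) and DNASE2 (0.70) were lost in 8 to 14 of 21 alternatives. For GUSB these include leaving out MeWo control library 1 (0.74), 2 (0.78) or 3 (0.77), MeWo Dox 3 (0.75), SkMel28 control 1 (0.74) or 3 (0.71) and SkMel28 Dox 1 (0.72) or 2 (0.76). For GALNS they include MeWo control 2 (0.99) or 3 (0.92), MeWo Dox 2 (0.96) or 3 (0.80), SkMel28 control 1 (0.97), 2 (0.99) or 3 (1.02) and SkMel28 Dox 1 (0.85) or 2 (0.99). For GLB1 they include MeWo control 2 (0.83) or 3 (0.88), MeWo Dox 2 (0.81) or 3 (0.75), SkMel28 control 2 (0.86) or 3 (0.84) and SkMel28 Dox 1 (0.82). For GAA all libraries but MeWo Dox 1 and SkMel28 Dox 2 decided the call, with differences of 0.64 to 0.80, and for DNASE2 all but MeWo Dox 1 and SkMel28 control 1, with 0.61 to 0.77. GM2A, lower in both lines, had a difference of 0.63 (adjusted p = 0.0634 in limma) that was not called. It was called in DESeq2 (0.65), with spike-in scaling (0.99), with a pseudocount of 5 (0.63) and without MeWo Dox library 1 (0.73). The differences of HEXA (0.19), ASAH1 (0.11) and AGA (0.09) were not called. Without MeWo Dox library 1 the test called 18 members, against 24.7% of all genes. The recovered reads gave 9 in edgeR (6.39% of all genes) and 10 in DESeq2 (7.79%), spike-in scaling, which moved the median of all genes by 0.32, gave 11 (12%), and limma with no trend gave 3 (4.39%).

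**Figure D3:**
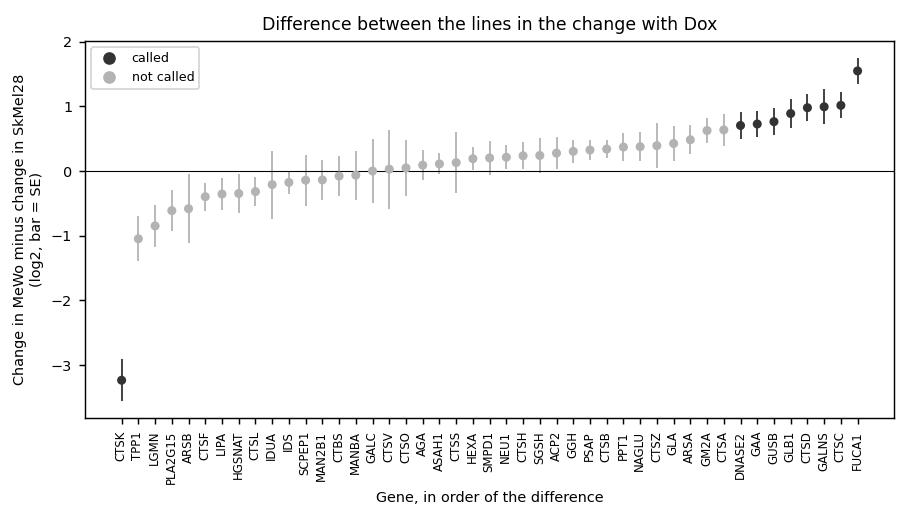
Difference between the lines in the change with Dox (change in MeWo minus change in SkMel28, log2) for each of the 45 genes in order of size, with bars of 1 SE from limma; dark points were called and grey points were not. CTSK stands at -3.23 at the left, and FUCA1 (1.55) and CTSC (1.01) at the right.

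Without Dox, the lines already differed in most of these genes. SkMel28 control and MeWo control differed in 30 of 45 members (66.7%), against 51.4% of all genes, with 21 higher in SkMel28 (46.7% against 26.6%) and 9 lower (against 24.8%), and 20 by at least 2-fold (44.4% against 26.4%). The median difference was 0.36, and 4.02e-05 over all genes. On the recovered reads edgeR called 30 (51.1% of all genes) and DESeq2 29 (47.5%), and with spike-in scaling 29 were called (46.5%). FUCA1 (194 ± 10.9 in SkMel28, 26.9 ± 2.28 in MeWo), the arylsulfatase ARSA (99.2 ± 10.3 and 14.3 ± 1.81), the folate-trimming GGH (196 ± 16.5 and 36.2 ± 3.38), CTSO (12 ± 4.17 and 2.01 ± 1.01) and CTSC (93.2 ± 7.60 and 21.4 ± 3.07) were higher in SkMel28 by the widest margins, with log2 differences of at least 2.08 and adjusted p of 1.63e-05 or less. On the other side CTSF (229 ± 19.1 in MeWo, 67.0 ± 5.85 in SkMel28), CTSK (278 ± 11.2 and 121 ± 18.4), the heparan sulfatase SGSH (159.9 ± 20.0 and 74.8 ± 12.5), PLA2G15 (28.0 ± 4.76 and 12.9 ± 4.10) and PSAP (6576 ± 467 and 3221 ± 276) were higher in MeWo, with differences of -1.76 to -1.03. The calls of these 10 genes held in each of 21 alternatives. CTSS had at most 3 reads in each MeWo control library. Its SkMel28 control mean, from 13, 6 and 14 reads, was 3.11 times a floor of 3 reads in a MeWo library. ASAH1, GALNS and TPP1, which changed with Dox in MeWo, differed little between control groups (0.10, 0.04 and 0.06, none called).

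**Figure D4:**
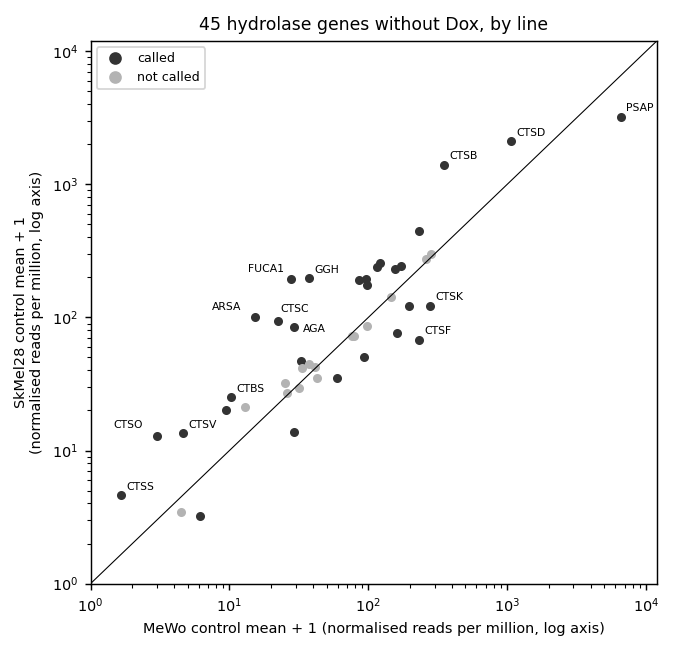
Mean of the 3 control libraries of SkMel28 against that of MeWo for each of the 45 genes, in normalised reads per 1000000 plus 1, both axes logarithmic; the line marks equal levels, and dark points were called. FUCA1, ARSA, GGH, CTSO and CTSC lie above the line, and CTSF, CTSK and PSAP below it.

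A wider list of 49 other genes linked to the lysosome put the hydrolases beside membrane proteins, sorting factors, further enzymes and cystatins. Cystatins are the natural inhibitors of cysteine cathepsins. The list is not limited to proteins that reside in the lysosome. In MeWo 1 of the 49 rose and 5 fell (12.2% called, against 16.7% of all genes), and in SkMel28 8 rose and 7 fell (30.6%, against 10.9%). The MeWo rise was SCARB2, the receptor that carries glucocerebrosidase to the lysosome, which went from 126 ± 1.91 to 237 ± 28.5 (0.91 ± 0.11 (SE), adjusted p = 1.14e-05). SCARB2 also rose in SkMel28 (0.91 ± 0.11 (SE), adjusted p = 1.9e-05). The largest MeWo falls were those of CST1 (17.1 ± 2.69 to 2.41 ± 0.264, -2.40 ± 0.18 (SE), adjusted p = 9.83e-08), CSTB (534 ± 8.48 to 228 ± 85.3, -1.29 ± 0.19 (SE), adjusted p = 0.00011) and the lysosomal membrane protein LAMP2 (371 ± 15.3 to 215 ± 31.2, -0.79 ± 0.11 (SE), adjusted p = 9.74e-05). In SkMel28 the largest falls were again those of CST1 (91.2 ± 11.2 to 28.8 ± 3.59, -1.63 ± 0.18 (SE), adjusted p = 1.48e-05) and CSTB (1613 ± 276 to 902 ± 47.9, -0.82 ± 0.19 (SE), adjusted p = 0.00745), with the membrane protein TMEM192 between them (34.4 ± 2.15 to 15.8 ± 2.52, -1.08 ± 0.21 (SE), adjusted p = 0.0022). CST1 and CSTB are both cystatins. The largest SkMel28 rises were SIDT2 (10.9, 9.84 and 15.3 without and 22.3, 31.4 and 37.5 with Dox, 1.26 ± 0.24 (SE), adjusted p = 0.0018), the cystatin CST7 (7.66 ± 2.83 to 17.0 ± 4.21, 1.08 ± 0.28 (SE), adjusted p = 0.017) and CLN8, which helps export hydrolases from the endoplasmic reticulum (24.1 ± 4.74 to 47.9 ± 4.09, 0.98 ± 0.18 (SE), adjusted p = 0.00169). The CST7 call was lost with a pseudocount of 0.1 (1.18) and with SkMel28 fitted alone (1.08). It was also lost without SkMel28 control library 1 (0.88) or 3 (1.04) and without Dox library 3 (0.90). CST7 had no read in any MeWo library, and its SkMel28 control mean was 6.57 times the floor of 3 reads in a MeWo library.

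A further gene, GNPTAB, and CD68 were chosen after their values were seen. GNPTAB, the transferase that starts the mannose 6-phosphate tag, fell in MeWo (-0.59 ± 0.14 (SE), adjusted p = 0.00615) and rose in SkMel28 (0.54 ± 0.14 (SE), adjusted p = 0.0164). The GNPTAB call in MeWo was lost with spike-in scaling (-0.32) and with MeWo fitted alone (-0.59). That in SkMel28 was lost with the same scaling (0.44) and with no mean-variance trend (0.54). It was also lost without SkMel28 control library 2 (0.53) or 3 (0.46) and without Dox library 1 (0.52) or 3 (0.52). CD68, the lysosomal glycoprotein also used as a macrophage marker, fell in SkMel28 from 86.7 ± 12.4 to 20.4 ± 2.24 (-2.03 ± 0.23 (SE), adjusted p = 1.71e-05).

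**Figure D5:**
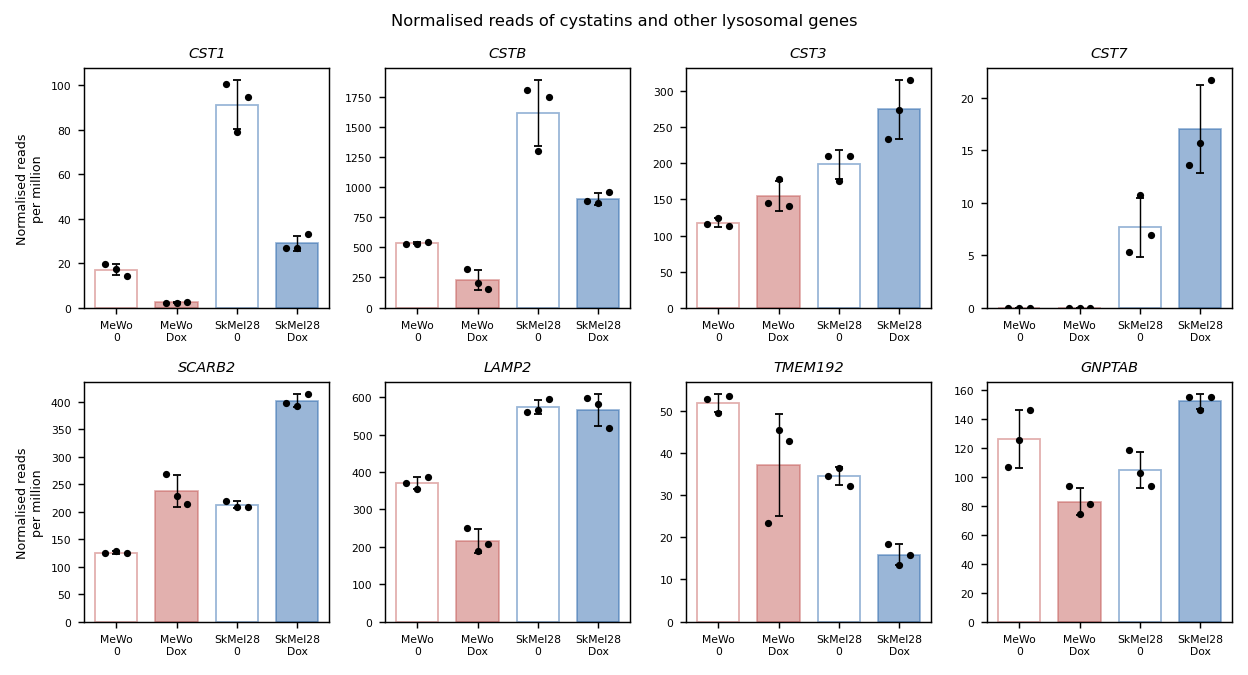
Normalised reads per 1000000 of 4 cystatins (CST1, CSTB, CST3, CST7) and of SCARB2, LAMP2, TMEM192 and GNPTAB in each library (dots), with bars for the mean and error bars of 1 SD (n = 3), open for controls and filled for Dox, red MeWo and blue SkMel28. CST1 and CSTB are lower and SCARB2 higher with Dox in both lines, LAMP2 is lower in MeWo, TMEM192 is lower in SkMel28, and GNPTAB moves in opposite directions.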

How the data were processed

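RNA of 12 libraries (3 each of MeWo and SkMel28, with 0 or 1 µg/ml Dox for 8 days) was read with the QuantSeq Forward 3′ kit. The deposited signal is gene reads divided by an edgeR effective library size, times 1000000. The submitters' processing notes list FastQC 0.11.7, cutadapt 2.8, STAR 2.5.1b, edgeR and hg38, while the counting tool, annotation, strand and treatment of multiply matching reads are not given in the sources used here. Every deposited value was a whole multiple of that of 1 read (tolerance 0.01 reads), 100% in each library, which returned 2568187 to 3714608 reads, and edgeR called 2045 genes on these in MeWo, 1422 in SkMel28, 806 between lines and 6442 between controls. No column was left unmapped. The table listed 12683 features, each reaching 1 in 3 or more libraries, and 67 spike-ins were set aside.

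Values were tested as log2(value + 1) in limma 3.58.1 (R 4.3.3, lmFit and eBayes with trend, 4 group means, all 12 libraries, two-sided). The 45 members and all lists were chosen with earlier results of these data known, so no test was made over a list. Members called in a line or between lines are named, most of them with the value in each library. Also given are the 5 highest and 5 lowest between controls and up to 3 of the largest rises and falls of the wider list. Alternatives were edgeR 4.0.16 and DESeq2 1.42.0 on the recovered reads, other scalings, pseudocounts (0.1, 5), a filter (5 in 3 libraries), no trend, a replicate term, each line alone and each library left out. Coordinates are from GENCODE (hg38) and promoter windows from RefSeq. Floors of 3 reads cover counting error only, as reads without molecular identifiers are not independent molecules. A gene of the wider list is not reported here. The code was tested on simulated data.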

Additional observations from a re-analysis of the deposited data

Results flagged for a closer look

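The change with Dox differed between the lines in 14 of the 94 members and genes of the wider list (14.9%, against 7.09% of all genes). This was by the test of the difference itself (limma, adjusted over all genes). Given as the change in MeWo minus that in SkMel28 on the log2 scale, the hydrolases were CTSC (1.01), CTSK (-3.23), CTSD (0.98), GUSB (0.76), GALNS (0.99), GLB1 (0.89), FUCA1 (1.55), GAA (0.73) and DNASE2 (0.70). In the wider list they were NAAA (-1.77), LAMP2 (-0.77), LAPTM4B (-0.85), GNPTAB (-1.13) and CLN8 (-0.93). The LAPTM4B call was lost in 16 of 21 alternatives, edgeR among them (-0.80), and without any 1 library but MeWo Dox 1 (-0.91 to -0.69). That of CLN8 was lost in 12, among them leaving out any 1 library but MeWo Dox 1 or 2 or SkMel28 control 3 (-0.99 to -0.81). That of NAAA was lost in 8 of 19, among them edgeR (-3.29) and leaving out MeWo control 1 or 2, MeWo Dox 3, SkMel28 control 1 or 3 or SkMel28 Dox 1 or 2 (-1.78 to -1.47). LAMP2 lost its call with spike-in scaling (-0.40) and no trend (-0.77), and GNPTAB with spike-in scaling (-0.76). FUCA1 and GNPTAB were called in both lines with opposite signs. NAAA had 3 reads or fewer in every MeWo Dox library, so that its fitted value depends on the pseudocount and is no bound.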

How the results depend on the processing

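Of the 14 members called in MeWo, CTSC, CTSK, GUSB, GALNS, ASAH1, GM2A, FUCA1 and GAA were called in all 22 alternatives, as were HEXA, ASAH1 and GM2A of the 7 in SkMel28, CTSC, CTSK and FUCA1 of the 9 between lines (21 alternatives) and 25 of the 30 between controls. No call changed sign. With each line fitted alone 8 members were called in MeWo (6.44% of all genes), without CTSD, TPP1, HEXA, AGA, ACP2 and DNASE2. A limit of 2-fold left 4 members in MeWo, 1 in SkMel28 and 3 between lines. With no mean-variance trend 3 were called in SkMel28 (8.74%) and 3 between lines (4.39%), and MITF itself was not called in SkMel28. That fit lost CTSD, TPP1, HEXA and ACP2 in MeWo and CTSF, GLB1, FUCA1 and AGA in SkMel28. Leaving out each library in turn gave 10 to 23 in MeWo, 3 to 11 in SkMel28, 4 to 18 between lines and 26 to 30 between controls. The highest counts in MeWo, SkMel28 and between lines came without MeWo Dox library 1. Between lines, 4 were called without MeWo control library 2 (3.56% of all genes) or 3 (3.87%), MeWo Dox library 3 (4.41%), SkMel28 control library 3 (4.18%) or SkMel28 Dox library 1 (3.77%), and 5 without MeWo Dox library 2 (4.77%) or SkMel28 control library 2 (4.18%). The cause was not tested. Same-numbered libraries did not all deviate together (correlations of -0.18, -0.035 and 0.042 in MeWo and -0.046, 0.045 and 0.16 in SkMel28, across genes). Nor did every library correlate best with its own number. Deviations from a group mean are tied to each other, so these correlations cannot settle whether equal numbers share a culture or day. With a replicate block 16 members were called in MeWo (14.4% of all genes), 5 in SkMel28 (8.48%), 5 between lines (5.08%) and 30 between controls (50%). The block gained CTSZ and PPT1 in MeWo and lost GLB1 and AGA in SkMel28, GUSB, GALNS, GAA and DNASE2 between lines, and, beside the members, TFE3 in MeWo, SLC17A5 in SkMel28, and LAPTM4B and CLN8 between lines. Depth limits CTSS, IDUA and GALC, with means under 10 in all groups. It also limits CTSO, CTSV and SCPEP1 in MeWo, where they had 4 to 11, 3 to 20 and 13 to 33 reads per library.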
